A study of Mus musculus with 6 samples.

Results

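The hypoxia response genes described here are Hif1a, Vegfa, Egln1, Egln3, Bnip3, Ero1l (Ero1a in current annotation), P4ha1, P4ha2, Ndrg1 and Ddit4, a list of 10 genes chosen by name. The deposited table of 12151 genes listed 9 of them, and all 9 passed the filter on low values (a mean of at least 1 CPM). Ndrg1 was not listed and is not analysed here. RNA was sequenced from cultured mouse glioma cells in 6 libraries. GL261, a mouse glioma line, was grown in DMEM with fetal bovine serum and is labelled as differentiated glioma cells; its 3 libraries came from passages 17, 33 and 34 by title, although the passage field of the last says 33. The mNS cells, labelled as neurospheres of stem-like glioma cells, were grown in DMEM/F12 with B-27, basic FGF, EGF and heparin, and their 3 libraries came from passages 72, 77 and 85. Both media held penicillin G, streptomycin, HEPES, glutamine and β-mercaptoethanol, and both kinds of cell were taken in log phase. The labels name no oxygen level and no hypoxic treatment for either group. Cell form, medium and passage range changed together, so their parts in any difference cannot be told apart. Beyond the passage numbers nothing says whether the 3 libraries of a group were grown independently. The p-values therefore measure only the spread between these libraries, which may be technical.

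Cells sense oxygen through hydroxylation of the alpha subunits of hypoxia-inducible factor (HIF). When oxygen is plentiful, the prolyl hydroxylases encoded by Egln1, Egln2 and Egln3 mark the HIF alpha protein, the VHL ubiquitin ligase recognises the mark, and the protein is degraded. When oxygen is short, the protein persists, pairs with ARNT and activates genes of blood vessel growth, glycolysis, mitochondrial turnover and protein folding. Hif1a is therefore controlled largely at the protein level, which mRNA counts do not measure, while Egln3, Vegfa, Bnip3, Ddit4, Ero1l, P4ha1 and P4ha2 are known transcriptional targets of the pathway. In gliomas this response is known from the poorly perfused regions of the tumour.

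Between 12534422 and 14225175 reads per library fell in listed genes, and 1 read was worth 0.0708 to 0.0773 CPM, the unit of reads relative to library size with the authors' TMM factors. Of 9 neural stem and glial progenitor markers 6 were listed, 4 called higher in mNS and 1 lower, with summed levels of 1622 to 1868 CPM in GL261 and 1739 to 2175 CPM in mNS. The gene called lower was Nes, the largest part of the sum in both groups, which fell from 1518 ± 175 to 955 ± 236 CPM. Olig2 rose from 8.54 ± 2.97 to 437 ± 22.8 CPM, whereas Sox2 was not called at 181 ± 41.0 and 184 ± 15.1 CPM. None of 8 endothelial markers was listed, and of 8 microglia and macrophage markers only Cd68 and Csf1r were, at summed levels of 4.05 to 5.44 CPM in GL261 and 6.87 to 9.51 CPM in mNS. These genes went opposite ways: Cd68 rose from 2.95 ± 0.156 to 8.09 ± 1.32 CPM. Csf1r, which was not tested, fell from 1.68 ± 0.585 to 0.0488 ± 0.0423 CPM (68 reads against 2). Mesenchymal markers were listed for 6 of 10 and summed to 7804 to 9278 CPM in GL261 and 3765 to 3859 CPM in mNS, most of it from Vim. Among oligodendrocyte markers Mog and Cnp were called higher in mNS, and Sox10 and Mbp lower (Mbp from 763 ± 33.3 to 33.7 ± 10.3 CPM). All 5 listed astrocyte markers were called, with Slc1a3 and Aldoc higher and S100b, Gfap and Aldh1l1 lower (S100b from 225 ± 17.4 to 52.1 ± 9.55 CPM). Beside these marker counts, 64.3% of all tested genes were called. In bulk RNA, fewer cells of a type and less RNA per cell cannot be told apart.

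The comparison of mNS with GL261 asks whether genes of the oxygen response differ between stem-like and serum-grown glioma cells. The list did not move as a block. Ddit4, Ero1l and Egln3 rose about as strongly as each other, with ratios of group means of 2.08, 2.17 and 2.30, and P4ha1 and P4ha2 fell to ratios of 0.55 and 0.404. Bnip3 and Vegfa rose less, with ratios of 1.37 and 1.22. Hif1a and Egln1 were not called. In limma with Benjamini-Hochberg adjustment over 12006 genes, 5 of the 9 genes were called higher in mNS and 2 lower at an adjusted p under 0.05. Of all tested genes 32.2% were called higher and 32.1% lower, 64.3% in all, so 7 of 9 is near the share of the whole table. Leaving out mNS replicate 2 reduced the 5 genes called higher to 3. With a log2(CPM + 1) change of 1 or more also required, 4 of the 9 genes were called, against 19.7% of all tested genes; 3 were higher (11.3% of all) and 1 lower (8.47% of all). The groups did not overlap for 7 of the 9, against 69.9% of all tested genes. The median log2 difference of the 9 genes was 0.28, beside -0.0027 for all genes tested.

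**Figure D1:**
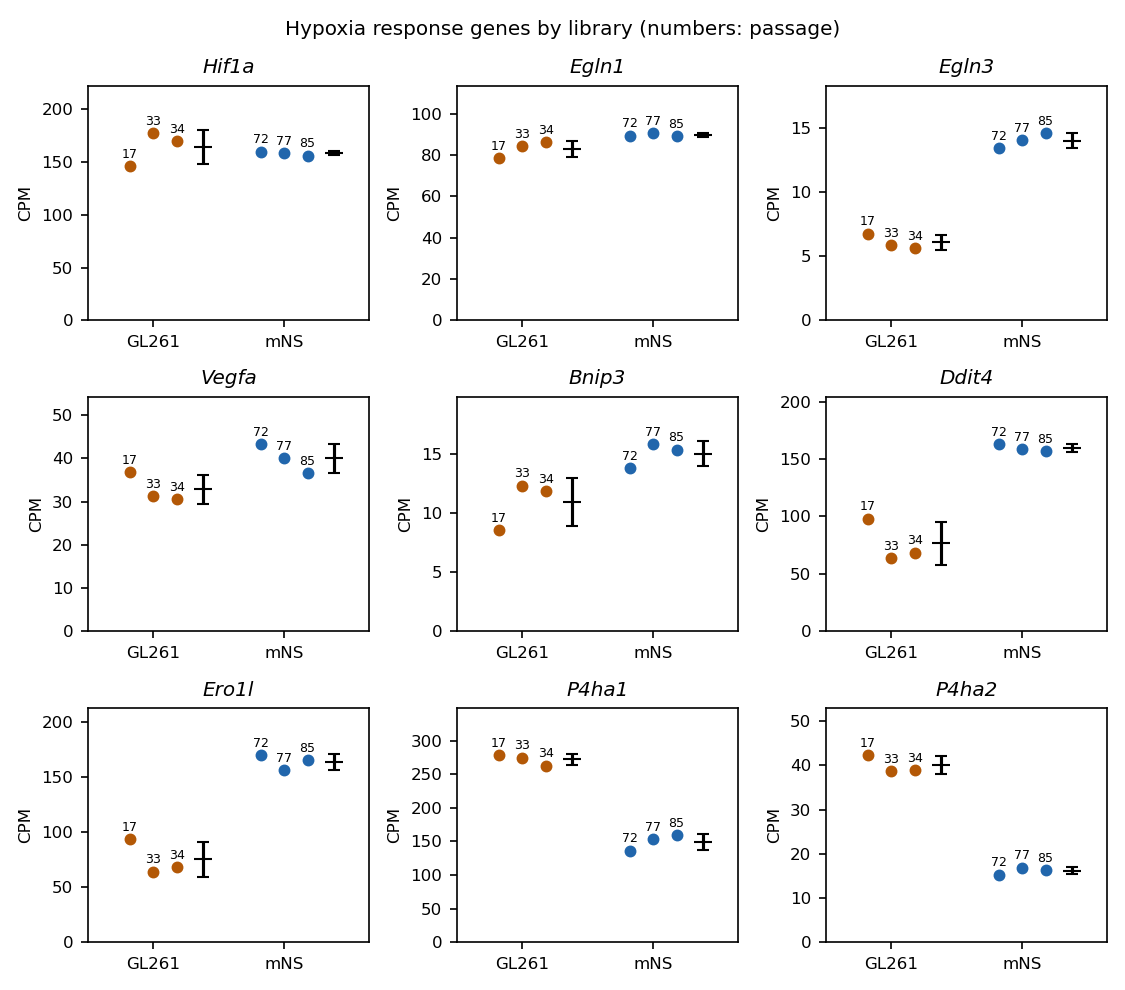
CPM of the 9 listed hypoxia response genes in each library, with 1 panel per gene and its own axis from 0; points are libraries labelled by passage, and the black bars are the mean ± SD of 3 libraries. Ddit4, Ero1l and Egln3 are higher in every mNS library, P4ha1 and P4ha2 are lower in every mNS library, and Hif1a overlaps between the groups.

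Hif1a encodes the oxygen-regulated alpha subunit of HIF (chromosome 12, 73901375 to 73947530, plus strand, in GRCm38). It stood at 146, 177 and 169 CPM in GL261 at passages 17, 33 and 34, and at 159, 158 and 156 CPM in mNS at passages 72, 77 and 85. All mNS values lay inside the GL261 range, whose lowest value was passage 17. The group means were 164 ± 16.3 and 158 ± 1.83 CPM (SD, n = 3 each). The log2 difference was -0.05 ± 0.08 (SE; 95% interval -0.23 to 0.13; limma adjusted p = 0.587). The sign of this difference was not stable: it was 0.039 with columns rescaled to a common sum, 0.023 under quantile normalisation and 0.0061 without GL261 replicate 2, none of them called. With array weights it was -0.11 and called (adjusted p = 0.0342). An antisense gene model, Gm15283, and another model on the same strand, Gm49321, overlap Hif1a in GENCODE. The authors' use of strand in counting was not given in the sources used here, so reads of overlapping models cannot be told apart from those of Hif1a.

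The partners of Hif1a in the oxygen-sensing machinery were mostly lower or level in mNS, with a single large exception. Of 15 tested genes of HIF subunits and oxygen-sensing machinery, 3 were called higher and 8 lower, and the median log2 difference was -0.15. That is 73.3% called, near the 64.3% of all tested genes (32.2% higher and 32.1% lower). The 11 calls became 7 without mNS replicate 3. Hif3a, another alpha subunit whose short forms are known to restrain HIF activity, had 1 read in each GL261 library, which is 0.0738 ± 0.00139 CPM. In mNS it stood at 54.8, 36.6 and 37.6 CPM, or 1730 reads against 3, a ratio of 581 with a 95% counting interval (Clopper-Pearson) of 199 to 2822. An interval of this kind holds for counting error alone, because the reads carry no molecular identifiers and need not be independent molecules. Cited2, which competes with HIF for the coactivators CBP and p300, fell from 36.2 ± 2.73 to 14.7 ± 2.80 CPM (adjusted p = 5.47e-05), and Os9, a lectin of the endoplasmic reticulum that has also been linked to HIF hydroxylation, fell from 145 ± 4.07 to 89.1 ± 2.95 CPM. The coactivator gene Ep300 rose 1.40-fold, and Vhl rose from 33.6 ± 0.537 to 43.0 ± 1.29 CPM. Arnt, the constant partner, stood at 61.1 ± 2.50 and 60.6 ± 3.83 CPM with overlapping groups. Epas1, which encodes the other main alpha subunit, was not listed in the table.

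Of the HIF prolyl hydroxylases, Egln3 rose while Egln1 was not called. Egln1 (chromosome 8, 124908587 to 124949324, minus strand), the main oxygen sensor in most cells, stood at 78.6, 84.2 and 86.3 CPM in the GL261 libraries and at 89.5, 90.8 and 89.1 CPM in the mNS libraries. Every mNS library lay above every GL261 library, but the step was small, with a log2 difference of 0.11 ± 0.06 (95% interval -0.03 to 0.26; adjusted p = 0.156). It was called with columns rescaled to a common sum (0.20, adjusted p = 0.0217), under quantile normalisation (0.17, adjusted p = 0.0377) and with array weights (0.10, adjusted p = 0.0340). Egln3 (chromosome 12, 54178981 to 54203860, minus strand), the family member known to be most strongly induced by HIF itself, stood at 6.78, 5.90 and 5.64 CPM in the GL261 libraries and at 13.4, 14.1 and 14.7 CPM in the mNS libraries. The groups lay far apart relative to their spread, 6.11 ± 0.601 against 14.1 ± 0.609 CPM, a log2 difference of 1.09 ± 0.11 (adjusted p = 5.17e-05). Egln2, the third enzyme, fell from 66.8 ± 4.79 to 54.8 ± 6.59 CPM. The log2 ratio of Egln3 to Egln1 within a library was -3.57 ± 0.19 in GL261 and -2.59 ± 0.06 in mNS, a difference of 0.97. In an exact two-sided permutation test over the 6 libraries this gave p = 0.1, the smallest value that 3 against 3 allows.

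Vegfa, the main angiogenic ligand of the pathway (chromosome 17, 46016993 to 46032369, minus strand), rose slightly and with overlapping groups. It stood at 36.8, 31.2 and 30.6 CPM in GL261 and at 43.3, 40.1 and 36.6 CPM in mNS. The GL261 library at passage 17 was just above the mNS library at passage 85. The log2 difference was 0.28 ± 0.10 (95% interval 0.045 to 0.51; limma adjusted p = 0.0398). This call was lost without GL261 replicate 2 (adjusted p = 0.121), GL261 replicate 3 (0.126), mNS replicate 1 (0.110) or mNS replicate 2 (0.105), after median centring of the libraries (0.0596) and under quantile normalisation (0.0568), while the difference stayed above 0 in each of these. Among 6 tested VEGF ligand and receptor genes, 1 was called higher and 2 lower (50%, against 64.3% of all tested genes). Pgf, a related ligand, rose from 0.764 ± 0.180 to 5.55 ± 1.88 CPM. The coreceptor genes Nrp1 and Nrp2, whose products bind both VEGF and semaphorins, fell by 7.62 and 1.74 on the log2 scale; Nrp1 had 24 reads in mNS against 12614 in GL261. Flt1, the VEGF receptor that was listed, was not called, and Kdr was not listed.

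Bnip3 encodes a mitochondrial protein that recruits the autophagy machinery to mitochondria (chromosome 7, 138890836 to 138909519, minus strand). It stood at 8.57, 12.3 and 11.8 CPM in the GL261 libraries and at 13.8, 15.9 and 15.4 CPM in the mNS libraries, from 444 and 605 reads in all. The mNS libraries were all higher, and GL261 at passage 17 was the lowest of the 6. The log2 difference was 0.44 ± 0.15 (adjusted p = 0.0265). The call was lost without GL261 replicate 1 (0.29, adjusted p = 0.0514), mNS replicate 2 (0.40, 0.0905) or mNS replicate 3 (0.42, 0.0670) and under quantile normalisation (0.32, 0.0904). An antisense model (Gm45507) and a processed pseudogene (Gm18258) lie within the Bnip3 locus, and their reads could be mixed with its own. Of 16 tested genes of BNIP3 relatives and mitophagy, 9 were called higher and 4 lower, with a median log2 difference of 0.38. In all 81.25% were called, against 64.3% of all tested genes. Gabarapl1, a membrane tag of autophagosomes, rose 2.70-fold from 56.7 ± 10.8 CPM. Pink1, the kinase that marks damaged mitochondria, rose 1.96-fold, the autophagy receptor gene Sqstm1 1.94-fold and Calcoco1 1.96-fold. Bnip3l, the close relative of Bnip3, rose from 59.8 ± 4.04 to 86.4 ± 10.8 CPM. The genes that fell included Gabarap and Map1lc3a, tags of the same family as Gabarapl1. Within that family Map1lc3b rose from 30.7 ± 1.95 to 42.0 ± 3.25 CPM, and Gabarapl2 was not called.

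Ddit4, also known as REDD1, encodes an inhibitor of the growth kinase complex mTORC1 that acts through the TSC proteins (chromosome 10, 59949669 to 59951834, minus strand). It stood at 98.1, 63.5 and 68.5 CPM in GL261 and at 163, 158 and 157 CPM in mNS. The mNS libraries lay close together and far above GL261, where passage 17 was the highest. The log2 difference was 1.07 ± 0.14 (76.7 ± 18.7 against 159 ± 3.28 CPM; adjusted p = 0.000216). Of 18 tested genes around DDIT4 and mTORC1, 5 were called higher and 2 lower and 11 were not called. The share called, 38.9%, was below the 64.3% of all tested genes. Sesn1 and Sesn3, stress-induced inhibitors of mTORC1, rose 2.51-fold and 2.80-fold, and Depdc5, a subunit of the amino acid sensing brake GATOR1, rose 1.66-fold. Nprl2 and Nprl3, the other GATOR1 genes of the list, were not called, at ratios of 0.830 and 0.827. Sesn2, of the same family as Sesn1 and Sesn3, was not called (44.9 ± 10.8 and 43.3 ± 7.18 CPM). Tsc1 was called higher and Tsc2 lower. Deptor, which binds and inhibits mTOR itself, fell from 25.7 ± 7.37 to 0.601 ± 0.222 CPM (log2 difference -4.03). Mtor and Rheb were not called.

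Ddit4 is also known as a target of ATF4 and of the glucocorticoid receptor, so both sets are given beside it. Of 18 tested ATF4 and integrated stress response genes, 5 were called higher in mNS and 4 lower, with a median log2 difference of -0.02. Calls made up 50% of them, against 64.3% of all tested genes. Slc7a11, the cystine importer gene, rose from 16.4 ± 14.7 to 138 ± 7.87 CPM. Its 8.44-fold ratio was 17.5 without GL261 replicate 1. Trib3 rose 3.21-fold and Atf3 2.79-fold. Nupr1 rose 1.94-fold with overlapping groups, and its call was lost when GL261 replicate 2, GL261 replicate 3, mNS replicate 1 or mNS replicate 2 was left out. Atf4 itself was called lower. Of 11 tested glucocorticoid-induced genes, 3 were called higher and 2 lower (45.5%, against 64.3% of all tested genes). Sgk1, a kinase of ion transport and survival, rose 9.37-fold from 18.5 ± 2.02 CPM, Per1 1.86-fold and Tsc22d3 1.54-fold, whereas the phosphatase gene Dusp1 fell 5.52-fold. Whether either set bears on Ddit4 was not tested.

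Ero1l encodes the oxidase that passes electrons from protein disulfide isomerase to oxygen, so that disulfide bonds can form in the endoplasmic reticulum (chromosome 14, 45283087 to 45318771, minus strand). It stood at 93.2, 64.1 and 68.3 CPM in GL261 and at 170, 156 and 165 CPM in mNS. The groups were far apart, and passage 17 was again the highest GL261 library. The log2 difference was 1.13 ± 0.13 (75.2 ± 15.7 against 164 ± 7.06 CPM; adjusted p = 8.23e-05). The other oxidase gene, Ero1lb, rose 4.44-fold from 3.91 ± 0.523 CPM, and Prdx4, a peroxiredoxin of the same compartment, rose from 70.1 ± 6.77 to 129 ± 17.8 CPM. These were the exceptions in their list: of 18 tested genes of oxidative folding in the endoplasmic reticulum, 15 were called lower and 2 higher. The median log2 difference was -0.50, and 94.4% were called, against 64.3% of all tested genes. P4hb, the disulfide isomerase that also serves as the shared subunit of collagen prolyl hydroxylase, fell 1.77-fold from 1855 ± 72.7 CPM, and the peroxidase gene Gpx8 fell 3.15-fold. Both oxidase genes thus rose in libraries where most of the folding enzymes and chaperones fell.

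The collagen prolyl 4-hydroxylase genes P4ha1 and P4ha2 fell. Their products are the catalytic subunits that stabilise the collagen triple helix, and like the HIF hydroxylases they need oxygen. P4ha1 (chromosome 10, 59323296 to 59373304, plus strand) stood at 279, 275 and 262 CPM in GL261 and at 136, 153 and 159 CPM in mNS. P4ha2 (chromosome 11, 54100095 to 54131665, plus strand) stood at 42.3, 38.7 and 38.9 CPM in GL261 and at 15.3, 16.9 and 16.3 CPM in mNS. Neither gene had overlapping groups. The log2 differences were -0.86 ± 0.07 for P4ha1 (adjusted p = 1.19e-05) and -1.26 ± 0.09 for P4ha2 (adjusted p = 4.16e-06). The log2 ratio of P4ha2 to P4ha1 was -2.74 ± 0.05 in GL261 and -3.13 ± 0.07 in mNS, a difference of -0.40 (exact two-sided permutation p = 0.1, again the smallest possible). P4ha3, the third catalytic subunit, had 2677 reads over the GL261 libraries and a single read, at passage 72, over those of mNS. That is a count ratio of 2655, with 95% counting limits of 476 and 104910. All 3 catalytic subunit genes were therefore lower in mNS.

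Other genes of collagen hydroxylation and folding went the same way. Of 13 tested genes 11 were called lower and none higher, and the median log2 difference was -0.75. Among all tested genes the share called lower was 32.1%. The number higher at an unadjusted p under 0.05 was 0 of 13 in limma, in both edgeR tests and in DESeq2. Plod2, a collagen lysyl hydroxylase and itself a known HIF target, fell 3.89-fold from 293 ± 56.9 CPM, the prolyl 3-hydroxylase gene Leprel1 3.26-fold and the chaperone gene Fkbp10 2.28-fold. Serpinh1 and Plod1 were not called. The summed mesenchymal markers given above moved in the same direction. Vim made up most of that sum (7257 ± 617 CPM in GL261 and 3659 ± 117 CPM in mNS). Of the 6 tested markers, 5 were called lower (32.1% of all tested genes were) and none higher. Fn1 fell from 1030 ± 68.7 to 1.81 ± 0.214 CPM, and Acta2 and Pdgfrb were also called lower. The collagen genes among these markers did not move alike. Col1a1 fell from 127 ± 9.75 to 6.18 ± 2.03 CPM, whereas Col3a1 was not called, at 230 ± 93.2 and 146 ± 70.6 CPM with overlapping groups. The part of these markers in the fall of P4ha1 and P4ha2 was not tested.

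**Figure D2:**
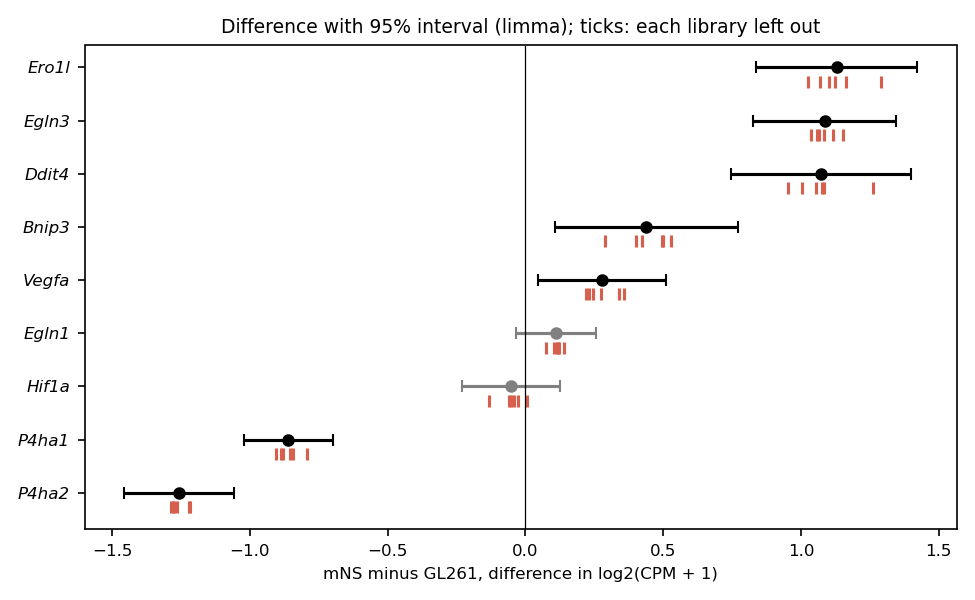
Difference in log2(CPM + 1) between mNS and GL261 for the 9 genes, with points and bars for the limma estimate and its 95% interval, grey where not called, and red ticks for the estimate with each library left out in turn. Ero1l, Egln3 and Ddit4 sit near 1.1, P4ha1 and P4ha2 at -0.86 and -1.26, and the intervals of Egln1 and Hif1a cross 0.

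Targets of HIF outside the list were called in both directions. Of 42 tested genes, 19 were called higher in mNS (32.2% of all tested genes were) and 13 lower (32.1% of all), with a median log2 difference of 0.30. Aldoc, the aldolase of brain and also one of the astrocyte markers, rose 6.73-fold, the glycogen-targeting subunit gene Ppp1r3c 7.82-fold (from 2.64 ± 0.757 to 20.7 ± 9.32 CPM) and the small transcription factor gene Maff 5.27-fold, whereas Angptl4, a secreted inhibitor of lipoprotein lipase, fell from 22.1 ± 0.847 to 0.272 ± 0.0362 CPM. The following genes of glucose use were named after their values were seen. The glucose transporter gene Slc2a1 rose from 69.3 ± 2.91 to 165 ± 30.5 CPM while Slc2a3 fell from 92.9 ± 15.8 to 35.5 ± 2.27 CPM. Hk2 and Pdk1 rose 1.75-fold and 1.49-fold, and Pfkfb3 and Pfkp were also called higher. Pgk1 and Ldha fell 1.90-fold and 1.61-fold, and Aldoa, Gpi1 and Slc16a3 were also called lower, while Pfkl, Tpi1 and Pgam1 were not called. Car9, often used as a marker of hypoxic cells, was low in both groups and rose from 1.16 ± 0.454 to 3.11 ± 0.843 CPM. Of the NDRG family, to which the unlisted Ndrg1 belongs, Ndrg3 rose from 29.1 ± 3.49 to 45.2 ± 1.53 CPM and Ndrg4 2.51-fold from 14.7 ± 1.78 CPM, and Ndrg2 was not called. Over all 155 distinct genes of these pathway lists that were tested, 48 were called higher and 59 lower, shares to be read against 32.2% and 32.1% of the whole table.

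**Figure D3:**
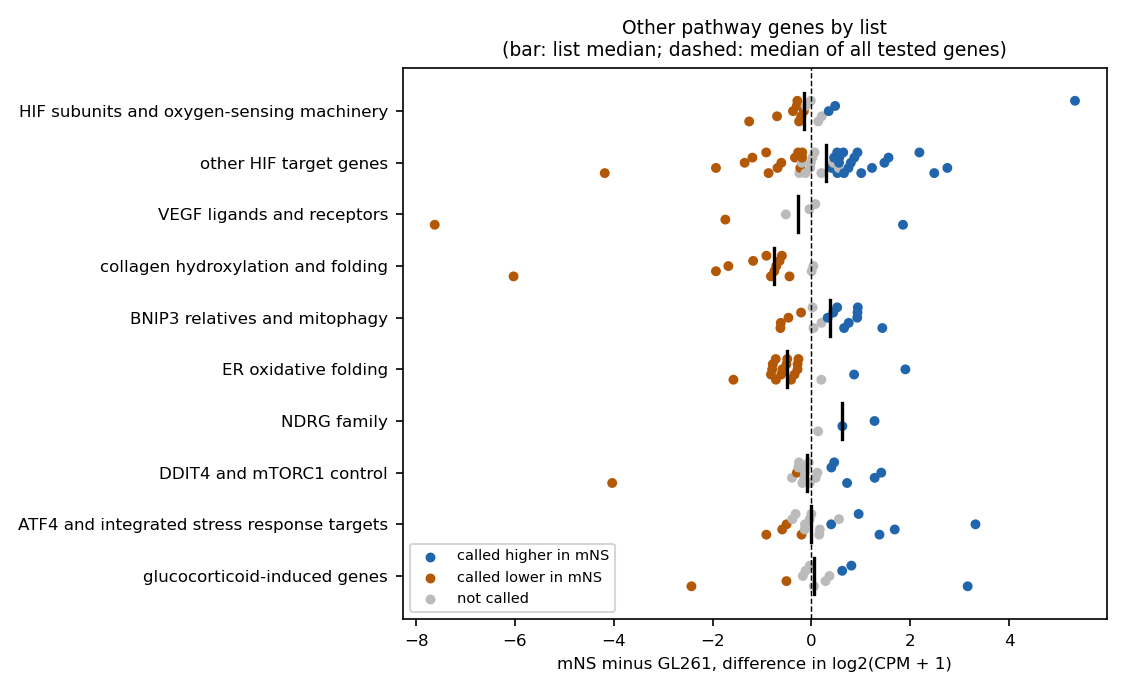
Difference in log2(CPM + 1), mNS minus GL261, of each tested gene in 10 pathway lists; points are genes coloured by their limma call, black bars are list medians, and the dashed line is the median of all tested genes. Genes of collagen hydroxylation (median -0.75) and of oxidative folding (-0.50) lie mostly to the left, and mitophagy genes (0.38) and HIF targets (0.30) spread to both sides.

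Per length of exon, the order of the genes changed between the groups. The CPM values were divided by the merged exon length of each gene in GENCODE M21, a scale on which levels of different genes can be set side by side. In GL261 P4ha1 was highest at 66.1 ± 2.06 CPM per kb, followed by Ddit4 (43.7 ± 10.7), Hif1a (27.8 ± 2.76), Egln1 (23.1 ± 1.11) and Ero1l (14.2 ± 2.97). Vegfa (7.67 ± 0.792), P4ha2 (6.41 ± 0.326), Bnip3 (4.82 ± 0.903) and Egln3 (2.29 ± 0.226) were lower. In mNS Ddit4 came first at 90.9 ± 1.87 CPM per kb and P4ha1 second at 36.4 ± 2.91, then Ero1l at 30.9 ± 1.34, Hif1a at 26.8 ± 0.311 and Egln1 at 25.0 ± 0.248. Vegfa (9.33 ± 0.785), Bnip3 (6.63 ± 0.469), Egln3 (5.28 ± 0.229) and P4ha2 (2.59 ± 0.124) followed. In neither group did the ranges of neighbours in this order overlap. Merged exon length stands in for the isoforms present, which gene counts do not show.

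**Figure D4:**
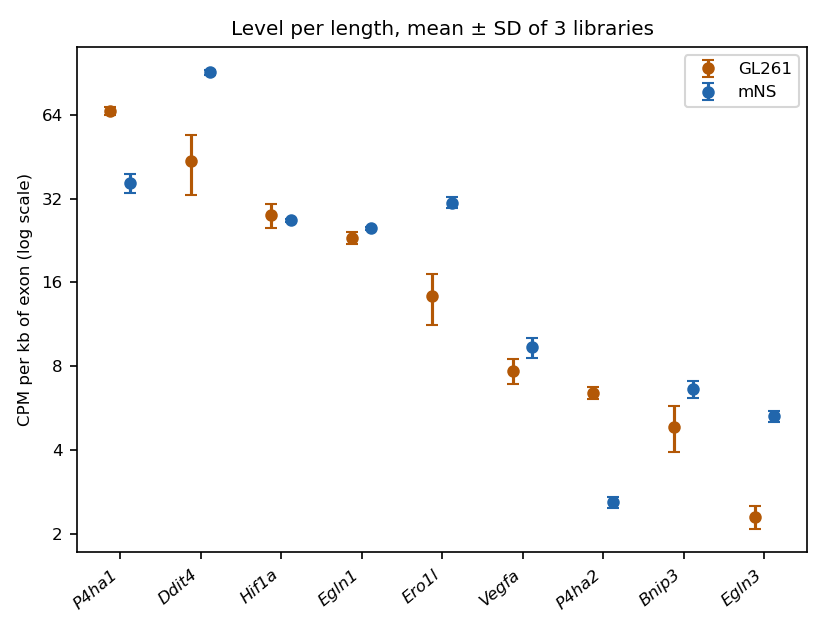
Level of each gene in CPM per kb of merged exon (log axis), as mean ± SD of 3 libraries in GL261 and mNS, ordered by the GL261 level. P4ha1 leads in GL261 at 66.1 and Ddit4 leads in mNS at 90.9, while Hif1a and Egln1 keep nearly the same level in both.

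Relative to their means, most of the 9 genes varied more among the GL261 libraries than among those of mNS. The coefficient of variation was larger in GL261 for 8 of the 9, the exception being P4ha1, against 54.7% of the 11968 tested genes with a mean above 0 in both groups. It ranged from 3.11% to 24.4% in GL261 and from 0.995% to 8.41% in mNS. For P4ha2 it was nearly equal (5.08% and 4.79%). The coefficient also depends on the mean: Egln3, with a lower mean in GL261, had nearly the same SD in both groups (0.601 and 0.609 CPM). Ddit4 at passage 17 was 1.49 times the mean of passages 33 and 34, and Ero1l was 1.41 times. In the other direction Bnip3 was 0.709 times and Hif1a 0.842 times that mean. Passage 17 was above both later libraries for 6 of the 9 genes, against 38.6% of all tested genes. Among the ATF4 and stress response genes this held for 16 of 18, with Slc7a11 at 4.24 times and Trib3 at 1.72 times the later mean. A single library at passage 17 allows no test, and its part in the spread of Ddit4 and Ero1l was not tested.

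The genes most like each member across the 6 libraries were found by Pearson's r of log2(CPM + 1), as a description without a test. Because cell form separates the libraries, genes that follow the group difference have many near matches. For P4ha2 406 genes had r above 0.99, for Egln3 392 and for P4ha1 234. Ero1l had 121 and Ddit4 76, and for Ddit4 the nearest were Kif13a and Zc4h2 (r = 0.999 each), which also had a raised value at passage 17. Hif1a had only 2, Snx18 (r = 0.993) and the metallothionein gene Mt1 (r above 0.99), both of which were lowest at passage 17. Vegfa had 4, led by Zfc3h1 (r = 0.994).

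The region before the start of each gene was searched for the core sequence that HIF is known to bind, because the listed genes are mostly its targets but moved in different directions. Windows of 300 bases (250 before to 50 after a start) came from RefSeq, build GRCm38.p6, and covered all 9 genes, Vegfa with a pair of starts. The letters searched were ACGTG and GCGTG on both strands, counting overlapping matches, so that CACGTG counts on each strand. Of the 10 windows 9 held a match to either form, against 43.8% of all 32851 windows, and 9 of 10 held ACGTG, against 19.6% of all windows. The window at the start of the Vegfa gene had no match and the one at its internal start had 2. The Hif1a window also lies at a start within the gene as GENCODE gives it. No GENCODE transcript was found to begin at this Hif1a start or at the internal Vegfa start. G and C made up a median of 69.8% of the 250 bases before the start in these windows (50.8%, in Egln3, to 86%) against a median of 52.4% for all windows, and many of them are textbook HIF targets, so the match counts are a description only. To let both directions be compared, the 250 bases before the start are given for Ddit4 (chr10:59951771-59952020, minus strand) and Ero1l (chr14:45318573-45318822, minus strand), which rose, and for P4ha1 (chr10:59323046-59323295, plus strand) and P4ha2 (chr11:54100674-54100923, plus strand), which fell. Each reads 5′ to 3′ toward the gene, with matches in capitals.
Ddit4: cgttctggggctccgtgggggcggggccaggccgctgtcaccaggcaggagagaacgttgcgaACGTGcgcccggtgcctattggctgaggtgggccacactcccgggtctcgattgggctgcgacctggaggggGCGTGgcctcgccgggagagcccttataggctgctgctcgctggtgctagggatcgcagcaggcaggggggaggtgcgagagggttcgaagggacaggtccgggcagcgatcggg
Ero1l: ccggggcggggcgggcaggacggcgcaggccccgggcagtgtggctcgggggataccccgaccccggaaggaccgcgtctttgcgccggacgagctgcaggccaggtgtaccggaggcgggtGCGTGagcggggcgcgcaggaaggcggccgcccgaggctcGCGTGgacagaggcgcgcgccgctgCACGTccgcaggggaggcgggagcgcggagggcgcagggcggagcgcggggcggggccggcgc
P4ha1: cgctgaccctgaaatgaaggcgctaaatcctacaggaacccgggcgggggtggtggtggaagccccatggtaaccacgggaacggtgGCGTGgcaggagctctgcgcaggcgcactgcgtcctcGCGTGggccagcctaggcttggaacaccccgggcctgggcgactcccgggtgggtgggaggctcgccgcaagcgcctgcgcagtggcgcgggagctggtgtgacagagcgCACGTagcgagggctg
P4ha2: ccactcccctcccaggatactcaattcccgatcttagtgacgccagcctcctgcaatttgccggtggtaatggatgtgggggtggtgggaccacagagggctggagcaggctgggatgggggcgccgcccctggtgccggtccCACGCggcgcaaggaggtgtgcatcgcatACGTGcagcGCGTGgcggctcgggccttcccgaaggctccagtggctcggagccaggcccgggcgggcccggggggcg
The genes that rose and the genes that fell both hold the core. Ddit4 had a forward ACGTG beginning 187 bases and a GCGTG beginning 115 bases before its start. In Ero1l the matches began 128, 88 and 63 bases before the start, in P4ha1 163, 126 and 16 bases, and in P4ha2 107, 78 and 69 bases, with a further ACGTG 10 bases after it. Egln3, which rose as much as Ddit4, had a single match, 229 bases before its start, and Bnip3, which rose less, had 5.

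**Figure D5:**
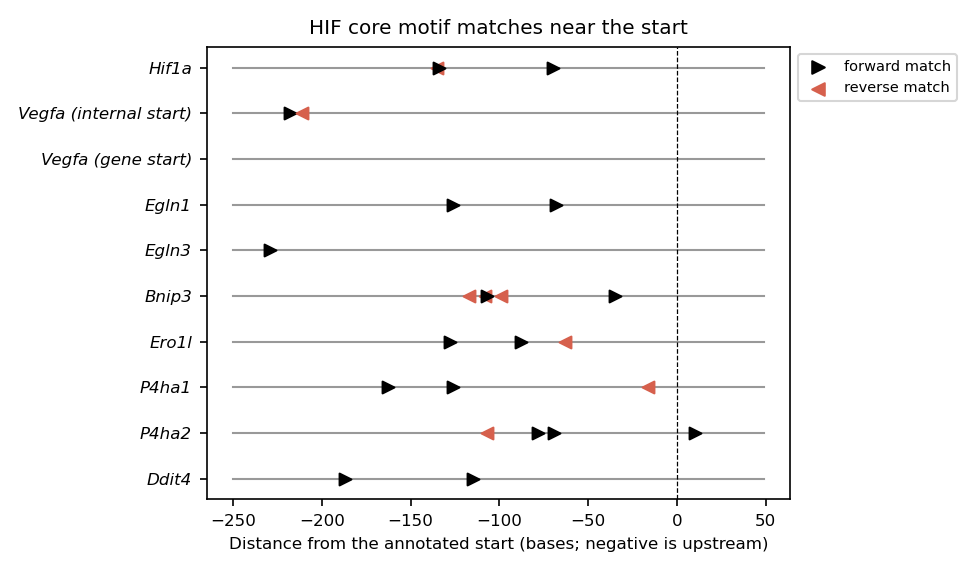
Positions of ACGTG or GCGTG matches in the 300-base window of each start, in bases from the start (dashed line); right-pointing black marks are forward and left-pointing red marks reverse matches, placed at the first base of the match. The 25 matches lie between 229 bases before and 10 bases after the start, and the window at the Vegfa gene start is empty.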

How the data were processed

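Per the labels, total RNA was made into stranded, ribosome-depleted libraries and read from a single end. The submitters' processing notes list the build mm10 and, with no roles, edgeR 3.4.2, HTSeq 0.5.3p9 and TopHat2 (version 2). The deposited values are a normalised signal, CPM with the authors' TMM factors per the series text and the file's name. The rule behind the choice of genes in the table was not given in the sources used here. Divided by the worth of 1 read, 100% of values were whole within 0.001 reads, which gave the reads per library. Groups were compared with limma 3.58.1 (eBayes with its trend option, two-sided; R 4.3.3) on log2(CPM + 1) for the 12006 genes whose mean reached 1 CPM; 145 lay below. The log2(CPM + 1) scale understates changes of low genes. Folds are ratios of mean CPM. On the recovered reads edgeR 4.0.16 by quasi-likelihood called 7651 genes and DESeq2 1.42.0 called 7353, beside 7714 in limma. Members and lists were chosen with earlier results of these data known. Named genes are all members, up to 4 called genes per list with the largest differences (up to 2 most abundant where none was called), and the 2 genes most like each member; others are named from their values. Positions and exon lengths are from GENCODE M21 (GRCm38). Tables and plots used matplotlib 3.10.9 and pandas 2.3.3 in Python 3.11.15; exact tests used scipy 1.17.1.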

Additional observations from a re-analysis of the deposited data

How the results depend on the processing

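Ddit4, Ero1l, Egln3, P4ha1 and P4ha2 kept their direction and call under every alternative run: pseudocounts of 0.5 and 0.1, no filter or a mean of at least 5 CPM, a common column sum, median centring, quantile normalisation, limma with array weights or no trend, edgeR's quasi-likelihood and exact tests, DESeq2, an adjusted p under 0.01, and each library left out. The 5 genes called higher became 3 at an adjusted p under 0.01 (Vegfa and Bnip3 lost) and 3 to 4 with a library left out, the 3 without mNS replicate 2. Hif1a changed sign, without a call, with a common column sum (0.039), under quantile normalisation (0.023) and without GL261 replicate 2 (0.0061); with each library left out in turn it lay between -0.13 and 0.0061. The 11 called genes of the HIF machinery list became 6 at an adjusted p under 0.01 and 7 to 11 with a library left out, the 7 without mNS replicate 3. With array weights, whose estimation stopped before convergence, 14 in place of 7 genes of the mTORC1 list were called. The cause of these changes was not tested. The 2 hydroxylase ratios kept their sign. The count of genes with a core motif rests on sequence alone, so these runs could not change it. It was 9 in the 300-base window, in the 250 bases before the start and for ACGTG alone, with Vegfa counted through its internal start. At that start, and at the Hif1a start used, no GENCODE transcript was found to begin. No paired analysis was possible because the replicate numbers were given in accession order and tie no libraries together. Depth limits Hif3a and P4ha3, whose lower groups had 3 and 1 reads. It also limits some markers: Mog had 3 reads in GL261. Gfap, Aldh1l1, Csf1r and Pdgfrb had 4, 0, 2 and 5 reads in mNS.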
